A study of Mus musculus with 4 samples.

Results

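The genes described here encode the proteins of the cytosolic ribosome and the factors that work with it in translation, measured in the neocortex of mouse embryos. Members were all probes whose single platform gene symbol names a protein of the large subunit (Rpl), a protein of the small subunit (Rps), an initiation factor (Eif), an elongation factor (Eef), a release factor (Etf1, Gspt) or a cytosolic poly(A)-binding protein (Pabpc), with a value on 3 or more of 4 arrays. The S6 kinases, whose symbols begin with Rps6k, were left out. This gave 80 of the 6856 probes on the array, for 75 gene symbols. They were 27 probes of the large subunit, 16 of the small subunit and 37 of factors. No probe with such a name was lost to the rule on missing values, since 79 members had a value on all 4 arrays and Rps2, a protein of the small subunit, lacked a value only on replicate 3.

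Ribosomes read mRNA in the cytosol, and each is built from a small subunit, which binds the mRNA and decodes it, and a large subunit, which joins amino acids. Initiation factors bring the first tRNA and the mRNA to the small subunit, elongation factors deliver further tRNAs and move the ribosome along, and release factors end the chain. Many mRNAs of this machinery begin with a C followed by a run of pyrimidines, the 5′ terminal oligopyrimidine or TOP tract, which couples their translation to growth signals through the kinase mTOR. Neurons and dividing progenitors both need large numbers of ribosomes to grow.

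Neocortex of munc18-1 null mutants, called synaptically silent in the labels, was set against neocortex of normal mice, both of C57BL/6 background and of embryonic day 16. The title of the study gives gene expression regulated by synaptic activity as its subject. Total RNA of 4 null samples, labelled as biological replicates, was hybridised on 4 two-colour arrays, each against a pool of 4 control replicates. Null RNA carried Cy3 on replicate 1 and Cy5 on replicates 2, 3 and 4, so that 3 arrays share a dye orientation. For the null sample of replicate 1 the labels disagree on age, with day 14 in the source name and day 16 elsewhere. How many embryos or which sexes entered a sample is not given in the labels.

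Each value is the log ratio of both channels as the authors deposited it, taken as log2. The sources used here leave the numerator unnamed, so no sign says whether null neocortex or the control pool had more of an mRNA, and all signs are as deposited. The pool counts as 1 control sample, which leaves out the spread between controls, and the number of arrays limits the precision. The arrays held 5777 to 5873 values each, with medians from -0.03 to 0.0044 and SDs over probes from 0.40 to 0.63, the widest on replicate 3. Ratios hold no level of expression, so the tissue could not be checked against its markers, and fewer cells of a type cannot be told apart from less RNA per cell. Probe sequences were not used here, so that signal from the many near-identical processed copies of ribosomal protein genes, or between close paralogs such as Eif4a1 and Eif4a2 or Eif2s3x and Eif2s3y, cannot be told apart from signal of the named gene.

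Sequences around the transcription starts are shown for the members at both ends of the values on replicate 3, because the classes stood furthest from 0 there, and for Rps6, the lowest member on replicate 4. They come from the RefSeq promoter table of build GRCm38.p6, in which 55 of the 75 member symbols were found through their Entrez IDs, and only genes with a single listed start were considered for printing. They were therefore chosen after their values were seen. Each line gives 10 bases before the start and 20 from it on, 5′ to 3′ on the strand of the gene, and capitals mark the longest run in the window of a C followed by at least 5 bases that are each C or T.
Rps12 (chr10:23787190-23787219, minus strand): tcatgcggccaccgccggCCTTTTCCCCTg
Rpl38 (chr11:114668570-114668599, plus strand): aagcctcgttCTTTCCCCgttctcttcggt
Rps28 (chr17:33824543-33824572, minus strand): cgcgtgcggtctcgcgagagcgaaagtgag
Rpl36a (chrX:134585644-134585673, plus strand): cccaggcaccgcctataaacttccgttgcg
Rps4x (chrX:102189372-102189401, minus strand): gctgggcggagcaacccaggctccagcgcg
Rps6 (chr4:86857348-86857377, minus strand): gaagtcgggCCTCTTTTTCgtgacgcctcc
Rplp0 (chr5:115559457-115559486, plus strand): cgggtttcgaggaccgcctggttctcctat
Gspt1 (chr16:11254306-11254335, minus strand): ggacacagacgggaactaccgaggcgaagg
Eif3c (chr7:126566347-126566376, minus strand): ctgctcagagggactcggcagcttagctgg
Eef2 (chr10:81176621-81176650, plus strand): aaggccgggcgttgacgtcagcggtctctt

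A run of this kind, searched on the strand of the gene within these 30 bases, was present at 14 of 37 listed starts of ribosomal protein genes (37.8%), at 8 of 32 starts of factor genes (25%) and at 22.0% of all 32851 promoters. The motif CCGGAAG, a core bound by ETS factors such as GABP, was searched on both strands of the whole 300 bases. It was present at 12 of 37 starts of ribosomal protein genes (32.4%), at 12 of 32 starts of factor genes (37.5%) and at 8.86% of all promoters. A listed start can lie some bases away from the start that the cells use, so that a missing run says only that these letters are not in this window. The 14 ribosomal protein genes with a run and the 18 without one had medians of 0.55 and 0.68 on replicate 3 and of 0.36 and 0.31 on replicate 1, with values that overlapped throughout.

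Most ribosomal protein probes were shifted to positive values together on replicates 1 and 3, which is called the block below. Smaller shifts were present on replicates 2 and 4, with ribosomal medians of 0.08 and -0.08, beside -0.03 and 0.0044 for all probes. Across replicates 1 to 4 the large subunit had median log ratios of 0.33, 0.09, 0.60 and -0.05. For the small subunit they were 0.39, 0.07, 0.68 and -0.15. Both subunits thus had the same order of arrays, with replicate 3 highest and replicate 4 lowest. The factors followed that order, at 0.17, -0.03, 0.21 and -0.09 on replicates 1, 2, 3 and 4. Their medians were smaller in size than those of both subunits on replicates 1, 2 and 3, and lay between them on replicate 4. Across the same arrays the ribosomal proteins exceeded the factors by 0.19, 0.11, 0.40 and 0.0053 in their medians.

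The counts of members show the same unequal arrays. On replicate 3, 34 of 42 ribosomal protein probes were above 0, against 49.7% of all probes, and 24 of 42 were above 0.5, against 17.4% of all probes. On replicate 1, 39 of 43 were above 0, against 50.2% of all probes, and 15 were above 0.5, against 7.77%. On replicate 2, 31 of 43 were above 0, against 45.9% of all probes, but none were above 0.5, where 6.53% of all probes lay. On replicate 4, only 12 of 43 were above 0, against 50.7% of all probes, and none were above 0.5, against 6.40%. Of the 37 factor probes, 29 were above 0, 17, 23 and 12 on replicates 1, 2, 3 and 4. Because replicate 1 has the opposite dye orientation, its positive block and that of replicate 3 have the same direction in null neocortex only if the deposited ratios were already turned to a common numerator. If the ratio is Cy5 over Cy3 throughout, replicate 1 opposes replicate 3.

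**Figure D1:**
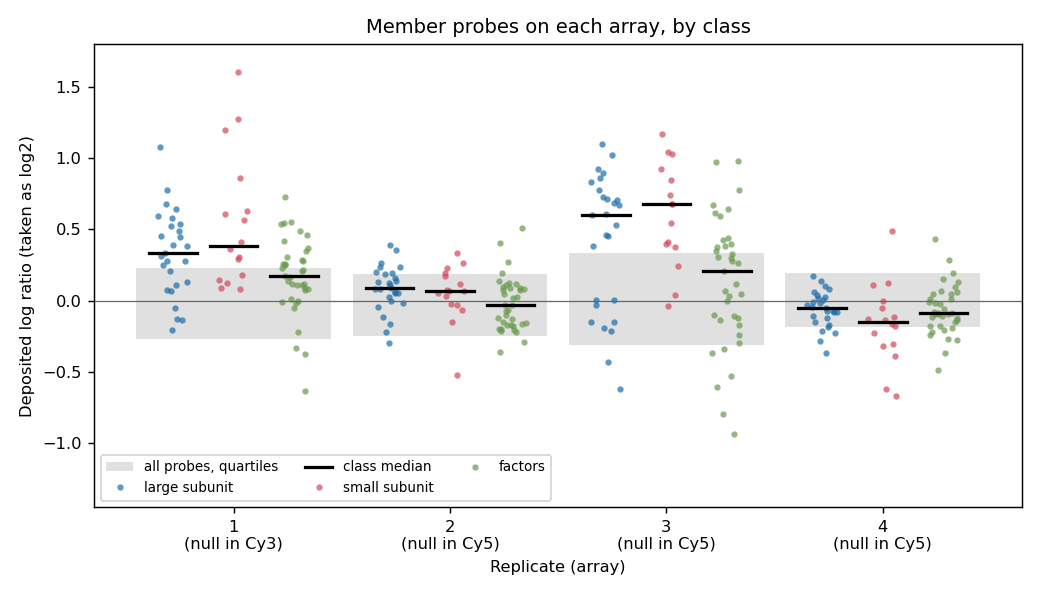
Log ratio (y axis, taken as log2, sign as deposited) of each member probe on each of 4 arrays (x axis), coloured by class, with the class median as a black bar and the quartiles of all probes as a grey band. The medians of both ribosomal subunits lie above the grey band on replicates 1 and 3 and within it on replicates 2 and 4.

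Within the large subunit 20 of 27 probes were above 0 on replicate 3 and 7 were below it. The highest was Rpl38, known in mice for its role in the translation of Hox mRNAs, with log ratios of 0.68, 0.09, 1.10 and -0.22 on replicates 1 to 4. Rpl27 had 0.54, 0.36, 0.90 and -0.08 on replicates 1 to 4, and Rpl37a, a zinc finger protein, had 0.13, 0.39, 0.86 and -0.02. For these 3 genes replicate 3 was highest and replicate 4 lowest. Rpl41, the shortest protein of the ribosome, departed from that order, with -0.13 on replicate 1 and 0.24, 0.69 and 0.17 on replicates 2, 3 and 4. Rpl21 had 0.07, 0.14, 0.71 and 0.08, so that replicate 3 alone stood away from 0. Rpl10, which joins the subunit late in its assembly, was highest on replicate 1, with 1.08, 0.13, 0.60 and -0.37. Rplp1, an acidic protein of the stalk that recruits elongation factors, had 0.58, 0.08, 0.83 and -0.21.

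The probes below 0 on replicate 3 included the base of the same stalk. Rplp0, which anchors Rplp1 to the ribosome, had -0.43 at 1 probe and -0.62 at the other on replicate 3, and both were the lowest values of the large subunit on that array. On replicates 1, 2 and 4 the first Rplp0 probe had 0.27, 0.08 and -0.11 and the second had 0.11, -0.16 and 0.10. Rplp0 and Rplp1 thus lay on opposite sides of 0 on replicate 3, although they sit in the same stalk. Rpl22, a protein that also binds RNA outside the ribosome, had -0.21, 0.27, -0.15 and 0.14 on replicates 1, 2, 3 and 4. Its signs were opposite to the class medians on replicates 1, 3 and 4. Rpl3 at -0.21, Rpl8 at -0.19, Rpl13a at -0.15 and Rpl7a at -0.03, chosen after their values were seen, made up the other large subunit members below 0 on replicate 3.

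The small subunit had the widest swings between arrays. Rps29, a small zinc-binding protein, had 1.28, 0.05, 1.04 and -0.62 on replicates 1, 2, 3 and 4. Rps6, the protein whose phosphorylation by S6 kinases is a common readout of mTOR activity, had 1.20, -0.52, 0.68 and -0.67. These were the widest ranges among all members, at 1.89 for Rps29 and 1.87 for Rps6, and Rps6 was the lowest ribosomal member on both replicate 2 and replicate 4. Rps12 had 0.18, 0.34, 1.17 and -0.30, so that it was the highest member on replicate 3 without being high on replicate 1. Rps28 had 0.61, 0.07, 1.03 and -0.0047. Rps3a1, a protein where the mRNA leaves, was positive on each array, with 0.41, 0.27, 0.84 and 0.11, and Rps18 had 0.09, 0.23, 0.55 and -0.16. Rps2, singled out for its missing value, had 1.60 on replicate 1, the highest value of any member on any array, with 0.17 on replicate 2 and 0.49 on replicate 4. On replicate 4 it was also the highest ribosomal member.

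Rpsa, the small subunit protein also known as a laminin receptor, was measured at 2 probes. They had 0.29 and 0.31 on replicate 1, 0.11 and -0.03 on replicate 2, 0.04 and 0.39 on replicate 3, and -0.13 and 0.12 on replicate 4. Both probes lay 0.36 apart on replicate 3, where the 3 probes of Eef2 spanned 0.59.

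**Figure D2:**
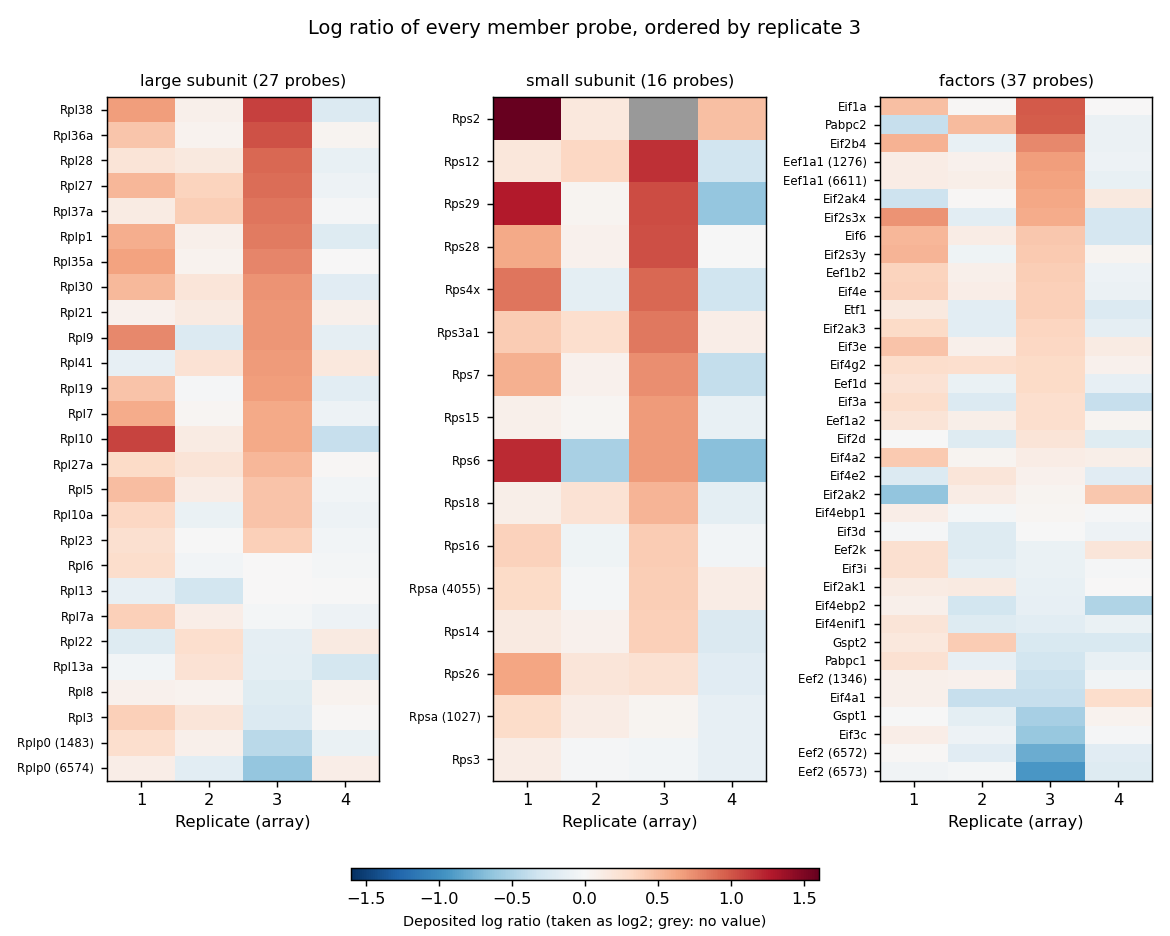
Log ratio of every member probe (rows, probe numbers in brackets where a gene has several) on replicates 1 to 4 (columns), in 3 panels by class, ordered by the value on replicate 3. Colour runs from blue (negative) over white (0) to red (positive), grey marks the missing value of Rps2 on replicate 3, and the red columns of replicates 1 and 3 set the ribosomal panels apart from replicates 2 and 4.

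Among the 16 probes of initiation factors the medians were 0.33, -0.07, 0.29 and -0.05 on replicates 1, 2, 3 and 4. Eif4e, which binds the cap of the mRNA, had 0.37, 0.11, 0.38 and -0.09 on replicates 1 to 4. Its partner helicases differed from each other. Eif4a1, the helicase common in dividing cells, had 0.08, -0.36, -0.37 and 0.29, and Eif4a2, its close paralog in brain, had 0.42, 0.05, 0.12 and 0.09. Eif3e, a subunit of the scaffold factor eIF3, was positive on each array, with 0.46, 0.08, 0.33 and 0.13, whereas Eif3c, another subunit of eIF3, was the lowest initiation factor on replicate 3 at -0.60. Eif6, which keeps free large subunits from joining, had 0.53, 0.12, 0.44 and -0.27.

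The gamma subunit of eIF2, which carries the first tRNA, is encoded by paralogs on the X and Y chromosomes. Eif2s3x on the X had 0.73, -0.17, 0.59 and -0.27 on replicates 1, 2, 3 and 4. Eif2s3y on the Y had 0.54, -0.07, 0.42 and 0.04. Both paralogs were higher on replicates 1 and 3 than on replicates 2 and 4. The highest factor on replicate 3 was Eif1a, which helps the scanning of the mRNA, at 0.98, and Eif2b4, a subunit of the exchange factor for eIF2, had 0.77 there, both chosen after their values were seen.

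The elongation factors split on replicate 3. Eef1a1, which brings charged tRNAs to the ribosome, had 0.67 at 1 probe and 0.64 at the other on replicate 3, and 0.11 at both on replicate 1. On replicate 2 its probes had 0.07 and 0.09, and on replicate 4 they had -0.09 and -0.11. The gap between both Eef1a1 probes was 0.03 or less on each array. Eef1a2, the form that replaces Eef1a1 in mature neurons and muscle, had 0.21, 0.10, 0.27 and 0.05 on replicates 1 to 4. Eef1b2 and Eef1d, parts of the exchange complex that recharges Eef1a1, had 0.40 and 0.30 on replicate 3, 0.35 and 0.23 on replicate 1, 0.09 and -0.10 on replicate 2, and -0.09 and -0.14 on replicate 4. Eef2, which moves the ribosome by a codon, stood on the other side of 0 on replicate 3, with -0.34, -0.80 and -0.93 at its 3 probes. Its probes lay between -0.05 and 0.09 on replicate 1, between -0.18 and 0.07 on replicate 2 and between -0.21 and -0.06 on replicate 4.

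Release factors and poly(A)-binding proteins gave no common picture. Etf1, which recognises stop codons, had 0.16, -0.16, 0.38 and -0.22 on replicates 1, 2, 3 and 4, and its partner GTPase Gspt1 had -0.01, -0.15, -0.53 and 0.06. Pabpc1, the main cytosolic poly(A)-binding protein, had 0.25, -0.13, -0.30 and -0.12. Pabpc2, a form known from the testis, had -0.37, 0.51, 0.97 and -0.09, the widest range among the factors at 1.34.

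The naming rule also took in 8 kinases and binding proteins that control translation, which were not shifted together on replicate 3. There 4 of 8 were above 0, against 49.7% of all probes. On replicate 1, 6 of 8 were above 0, against 50.2% of all probes. Their medians were 0.12, -0.10, -0.03 and -0.0059 on replicates 1, 2, 3 and 4. Eif4ebp2, the main brain form of the proteins that hold Eif4e inactive, had 0.08 on replicate 1 and -0.29, -0.14 and -0.49 on replicates 2, 3 and 4. Eif4ebp1, its relative, stayed between -0.03 and 0.11 on all 4 arrays. Eif2ak2, the kinase PKR that senses double-stranded RNA, had -0.64, 0.12, 0.04 and 0.43 on replicates 1, 2, 3 and 4. Eif2ak2 was the lowest factor on replicate 1 and the highest on replicate 4.

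When replicates 2 to 4, which share a dye orientation, were tested together, no member passed. Of the 79 members with a value on these 3 arrays, 0 had an adjusted p under 0.05 in limma, and 0 of the 5720 probes tested passed as well (0%). At an unadjusted p under 0.05, limma listed 0 of 79 members, against 553 of all probes tested (9.67%). The smallest adjusted p among members was 0.548 in limma, for Rpl41. Rpl41 had a mean log ratio of 0.37 ± 0.28 (SD, n = 3), a 1.29-fold size, with a 95% interval from -0.05 to 0.78. Rps3a1 had 0.41 ± 0.39 (SD, n = 3) with an interval from -0.06 to 0.88, and the second Eef2 probe had -0.38 ± 0.36 (SD, n = 3) with an interval from -0.84 to 0.07. Rpl37a had 0.41 ± 0.44, Rpl27 had 0.39 ± 0.49, Pabpc2 had 0.46 ± 0.53 and Eif4ebp2 had -0.30 ± 0.17 (SD, n = 3). All of these intervals included 0, and limma's adjusted p was between 0.548 and 0.597 for these 7 genes.

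The means over replicates 2 to 4 had medians of 0.16 for the large subunit, 0.15 for the small subunit and 0.0089 for the factors, beside -0.02 for all probes tested. Above 0 were 20 of 27 large subunit probes, 13 of 15 small subunit probes and 20 of 37 factor probes, against 47.4% of all probes tested. These medians moved with the arrays and the scaling. Without replicate 4 they were 0.32 for the large subunit, 0.35 for the small subunit and 0.084 for the factors, and without replicate 2 they were 0.25, 0.19 and 0.077. With array weights they were 0.10, 0.053 and -0.0069, and with a common scale 0.13, 0.069 and -0.0035. Over replicates 2 and 4 alone the medians were 0.0020 for the large subunit, -0.04 for the small subunit (-0.02 with Rps2, which is measured on both) and -0.03 for the factors, beside -0.02 for all probes, and 20 of 42 ribosomal protein probes were above 0, against 46.5% of all probes. The median 95% half-width was 0.42 for members, a 1.34-fold size, and 0.41 for all probes tested. This half-width belongs to the unadjusted interval of a single probe. Larger changes could also be missed after adjustment over the 5720 probes tested, of which 0 passed.

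**Figure D3:**
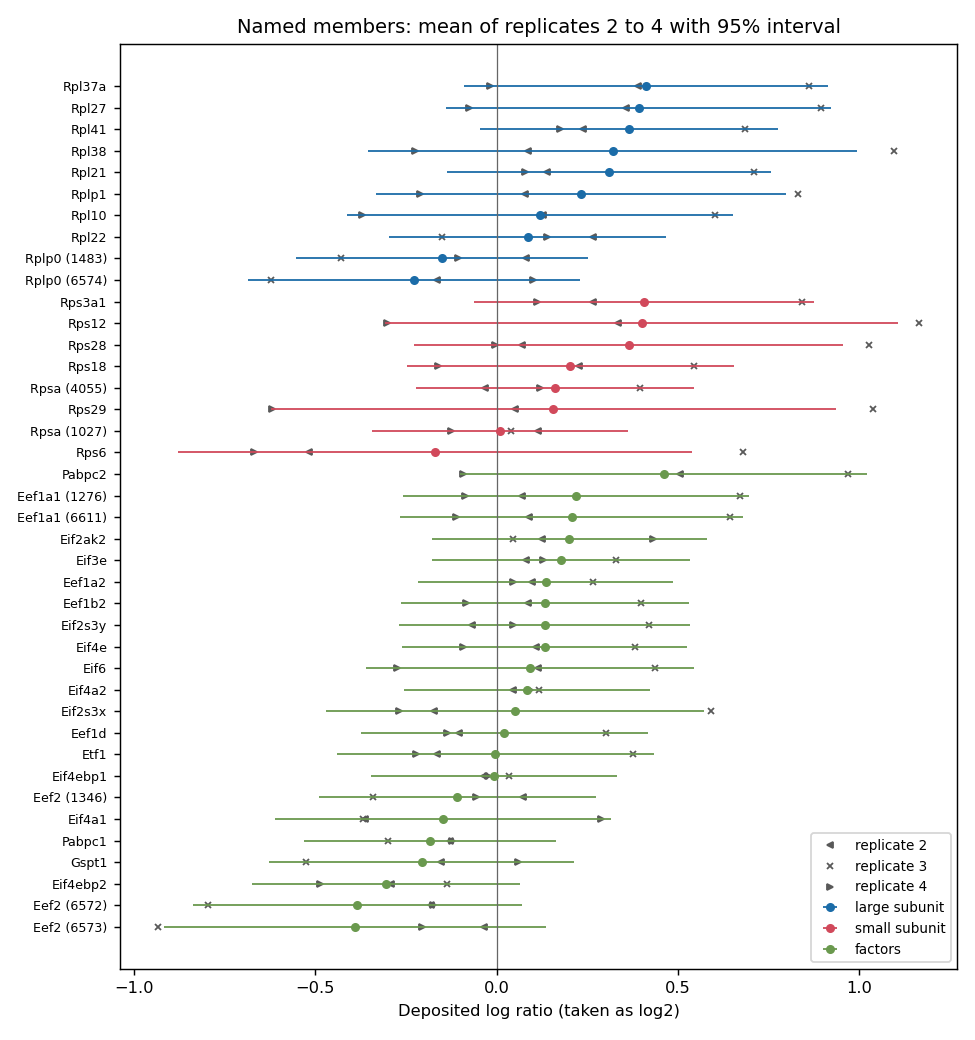
Mean log ratio over replicates 2 to 4 (coloured points, x axis, taken as log2) of 40 named member probes (rows, by class) with the 95% interval from limma, and the single arrays as small grey marks. Every interval includes 0, and for the ribosomal proteins with the widest intervals the mark of replicate 3 lies far to the right of replicates 2 and 4.

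The result over all 4 arrays depended on the assumed direction of replicate 1. The null sample of replicate 1 is also the one with day 14 in its source name. A difference in age could therefore not be told apart from other differences on that array. With replicate 1 turned, which holds if the ratio is Cy5 over Cy3 throughout, the medians of the means were 0.01 for the large subunit, -0.02 for the small subunit and -0.04 for the factors. In that case limma listed 0 of 79 members at an unadjusted p under 0.05, against 8.44% of 5687 probes, and the smallest adjusted p of a member was 0.592, for Pabpc2. With replicate 1 as deposited, which holds if the authors had already turned it, the medians were 0.25, 0.20 and 0.04 for the large subunit, the small subunit and the factors. Then 36 of 42 ribosomal protein probes had a mean above 0, against 47.0% of all probes. Rps3a1 at 0.41 ± 0.31 and Rpl27 at 0.43 ± 0.40 (SD, n = 4) were the 2 members at an unadjusted p under 0.05 in limma, against 7.12% of all probes. Neither passed after adjustment, with an adjusted p of 0.663 for both in limma. With either sign, 0 members passed limma's adjusted threshold, against 0% of probes in the turned case and 0.0352% in the other. With array weights on replicates 2 to 4, limma called 0 members after adjustment, against 0.0524% of probes, and 2 at an unadjusted p under 0.05, Eif4ebp2 and Pabpc2, against 18.7%.

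On replicate 3, the other lists of protein synthesis had lower medians than the ribosomal proteins. The 9 mitochondrial ribosomal proteins, which belong to the separate ribosome of the organelle, had medians of 0.05, 0.10, 0.38 and -0.08 on replicates 1 to 4. Like the cytosolic ones, they were highest on replicate 3 and lowest on replicate 4. On replicate 3, 4 of 9 were above 0.5, against 17.4% of all probes. Of these 9, 2 were at an unadjusted p under 0.05 on replicates 2 to 4 in limma, both positive, against 5.61% of all probes, and none passed after adjustment. They were Mrpl40 with a mean of 0.55 ± 0.14 (SD, n = 3; log ratios of 0.70, 0.51 and 0.43 on replicates 2, 3 and 4) and Mrps31 with 0.53 ± 0.22 (SD, n = 3; 0.74, 0.54 and 0.31). Both were below 0 on replicate 1, at -0.04 and -0.49.

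The 9 aminoacyl-tRNA synthetases, which charge tRNAs, had medians of 0.29, -0.22, 0.09 and -0.23 on replicates 1 to 4. Their highest median was thus on replicate 1. In limma 0 of 9 were at an unadjusted p under 0.05 on replicates 2 to 4, against 9.67% of all probes. Vars had -0.36 ± 0.22 and Cars had -0.28 ± 0.02 over replicates 2 to 4 (SD, n = 3). The 20 measured genes of ribosome biogenesis, of 45 listed, stayed near 0, with medians of 0.0044, -0.05, 0.02 and -0.04. Ubtf, which turns on the ribosomal RNA genes, had -0.50 ± 0.07 (SD, n = 3) and Wdr12, a factor of large subunit assembly, had 0.41 ± 0.16, and neither passed after adjustment in limma, with an adjusted p of 0.473 for Ubtf and 0.484 for Wdr12. Of 38 listed genes of translational control, 19 were measured, members among them, and their medians lay between -0.10 and 0.08. In that list 1 of 19 genes had an unadjusted p under 0.05, against 9.67% of all probes. It was the phosphatase subunit Ppp1r15a, which reverses the block of eIF2, at 0.38 ± 0.17, and Fmr1, the translational repressor lost in fragile X syndrome, had 0.41 ± 0.37 (SD, n = 3). The 10 probes for 7 of 11 listed TOP factors, all of them members, had medians of 0.17, 0.02, 0.29 and -0.12. Their order of arrays was that of the ribosomal proteins. In limma 0 of these 10 probes had an unadjusted p under 0.05, against 9.67% of all probes.

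The respiratory chain and a list of other abundant cytosolic genes, both outside translation, had the same order of arrays as the ribosomal proteins. The 28 probes of the respiratory chain had medians of 0.17, 0.06, 0.50 and -0.12 on replicates 1 to 4. On replicate 3, 14 of 28 were above 0.5, against 17.4% of all probes. Over replicates 2 to 4, Cox5b, a subunit of cytochrome oxidase, had 0.45 ± 0.06 (SD, n = 3), with -0.07 on replicate 1. Atp5md, a subunit of ATP synthase, had 0.62 ± 0.54 (SD, n = 3), with 0.53 on replicate 1. These were the 2 of 28 at an unadjusted p under 0.05 in limma, both positive, against 5.61% of all probes. Neither passed after adjustment, with an adjusted p of 0.473 for Cox5b and 0.488 for Atp5md in limma. Averaged by gene, 26 other genes of abundant cytosolic proteins, of 39 listed, had medians of 0.12, 0.07, 0.15 and -0.0055. Of these 26 genes, 8 were above 0.5 on replicate 3, against 17.4% of all probes. On replicate 1, 21 of 26 were above 0, against 50.2% of all probes. Pfn1 had 0.41 ± 0.40 and Tmsb4x had 0.26 ± 0.08 over replicates 2 to 4. Gapdh, spotted 78 times, had medians of -0.08, -0.05, -0.06 and 0.05, all within 0.1 of 0. Signal strength and RNA quality were not used here, and their part in the block was not tested.

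**Figure D4:**
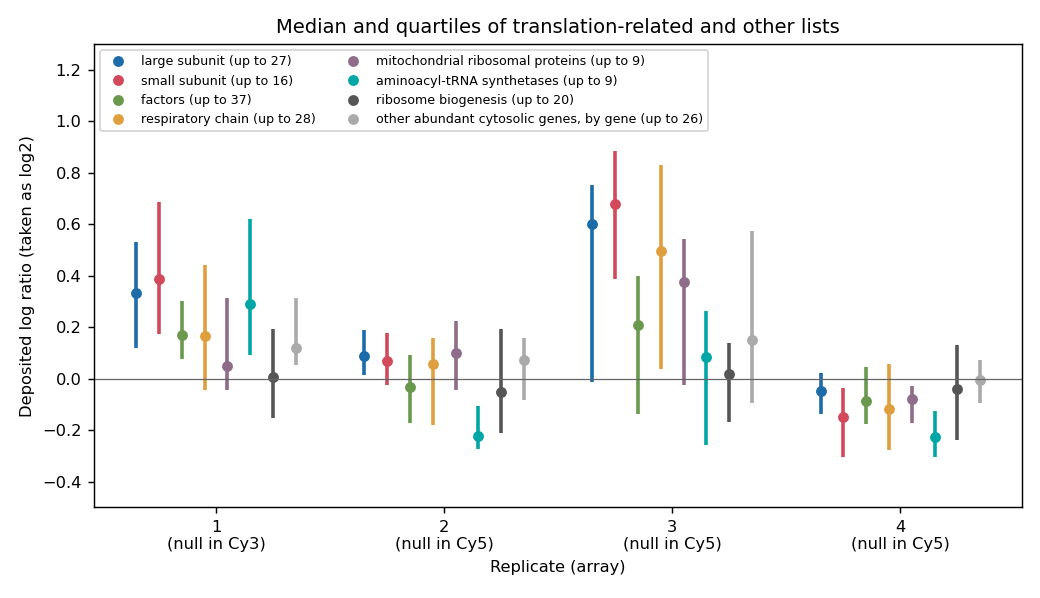
Median (points) and quartiles (bars) of the log ratio (y axis, taken as log2, sign as deposited) on each array (x axis) for the 3 classes of members and for 5 other lists, with the number of probes or genes in brackets. On replicate 3 the respiratory chain lies at 0.50, beside 0.60 and 0.68 for the ribosomal subunits, while ribosome biogenesis lies at 0.02.

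Marker lists of cell types also differed between arrays, and their part in the values above was not tested. Neuron markers, 9 probes for 7 of 10 listed genes, had medians of 0.03, -0.08, -0.14 and -0.20 on replicates 1 to 4. Neural progenitor markers, 9 of 9 listed, had -0.11, -0.03, 0.03 and -0.23. Replicate 3 was their highest array and replicate 4 their lowest, as for the ribosomal proteins, but the sizes differed. Above 0 were 5 of 9 on replicate 3, against 49.7% of all probes, and 3 of 9 on replicate 1, against 50.2%. The other marker lists had medians away from 0 on replicates 2 and 4 as well as on replicate 3. Blood markers, 4 of 10 listed, had 0.11, -0.16, -0.67 and -0.43 on replicates 1 to 4, and markers of meninges and mesenchyme, 5 of 8 listed, had 0.07, -0.39, -0.57 and -0.26. Vessel markers, 8 of 8 listed, had -0.17, -0.23, -0.41 and -0.26. Microglia markers, 6 of 7 listed, had -0.06, 0.30, 0.42 and 0.39, and choroid plexus markers, 3 of 3 listed, had 0.18, 0.57, 1.07 and 0.21. No marker passed the adjusted threshold on replicates 2 to 4 in limma. At an unadjusted p under 0.05, against 5.61% of all probes positive and 4.06% negative, were 2 positive and 1 negative of 3 choroid plexus probes, 3 positive of 6 microglia probes, 3 negative of 8 vessel probes, 2 negative of 4 blood probes and 2 negative of 5 probes of meninges and mesenchyme. Progenitor and neuron markers each had 1 positive and 1 negative of 9 probes at that mark.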

How the data were processed

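The authors deposited 1 log ratio per probe and array, which was taken as log2 because a log10 scale would give ratios too large for a scanner at the ends of the range. Log base, numerator, background correction and normalization: not given in the sources used here. No further column of values was left unused. Scanner intensities were not used here. A value of the mutated gene is not reported here. Symbols came from the platform annotation, in which 6269 probes had 1 symbol, 6 had several and 581 had none. Entrez IDs of 78 of 80 member probes were in the RefSeq table of GRCm38.p6, which changed 0 symbols.

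Mean log ratios were tested against 0, two-sided, in R 4.3.3 with limma 3.58.1 (lmFit, eBayes) over all probes with a value on each array of the fit, with Benjamini-Hochberg adjustment and a threshold of 0.05. The steps were tested on simulated data. Lists are described by counts and medians, with no list test. Members and lists were chosen with earlier results of these data known. Named members were, per class, the 4 with the smallest p and the 3 with the widest range over the arrays, a preset list of genes, and every gene with several probes. For other lists, the 2 with the smallest p were named. Nothing says whether the null samples came from separate litters, so that p-values measure the spread between these samples. Alternatives were centring, scaling, missing values, array weights, gene means, robust priors for the variance, another threshold, the sign of replicate 1 and leaving out each replicate.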

Additional observations from a re-analysis of the deposited data

Results flagged for a closer look

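Among 86 sets of 4 array values (class medians and named members, with both signs of replicate 1), 3 had 1 array far from the other 3, by Dixon's test at its 95% critical value. About 5% of such sets would be picked out by chance. Rpl21 had 0.71 on replicate 3 and 0.07 to 0.14 on the others as deposited, a gap of 0.883 of the range. With replicate 1 turned, Etf1 had 0.38 on replicate 3 and -0.22 to -0.16 on the others, a gap of 0.900. Eif4a2 had -0.42 on replicate 1, turned, and 0.05 to 0.12 on the others, a gap of 0.869.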

How the results depend on the processing

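No paired analysis was possible because each array compares 1 null sample with the same control pool. No member passed the adjusted threshold under any alternative listed in the processing. Of all probes, 0 passed with replicates 2 to 4, against 1 with a robust variance prior, 3 with array weights, 2 over 4 arrays as deposited and 1 at an adjusted p of 0.1. At an unadjusted p under 0.05 there were 553 probes, against 1067 with array weights and 236 to 621 with a replicate left out, the lowest without replicate 2. Members at that mark numbered 0, against 2 with array weights (of 18.7% of all probes), 2 over 4 arrays as deposited (7.12%) and 0 to 4 with a replicate left out, with 1 of 80 without replicate 3 (9.50% of all probes) and 4 of 79 without replicate 4 (10.9%), both below the share of all probes. The 12 class medians on single arrays kept their sign with centring, averaging by gene and the mean. The factor median over replicates 2 to 4 turned to -0.0035 with a common scale and -0.0069 with array weights. Without replicate 3 the medians were 0.0020 for the large subunit, -0.024 for the small subunit and -0.029 for the factors. Over 4 arrays with replicate 1 turned they were 0.012, -0.017 and -0.043. Means of named members that changed sign, none past the threshold, were as follows. With arrays centred, the mean was 0.0023 for Eif4ebp1 (probe 1834), 0.0071 for Etf1 (probe 1132). With arrays set to a common scale, the mean was -0.0093 for Eef1d (probe 894), -0.017 for Eif2s3x (probe 4702). With array weights, the mean was -0.060 for Eef1d (probe 894), -0.098 for Eif2s3x (probe 4702). Over 4 arrays with replicate 1 turned, the mean was -0.041 for Eef1d (probe 894), -0.14 for Eif2s3x (probe 4702), -0.036 for Eif2s3y (probe 4703), -0.041 for Eif4a2 (probe 4775), -0.064 for Eif6 (probe 463), -0.18 for Rpl10 (probe 1376), -0.20 for Rps29 (probe 2837), -0.066 for Rpsa (probe 1027). Over 4 arrays as deposited, the mean was -0.0086 for Eif2ak2 (probe 4137), 0.022 for Eif4ebp1 (probe 1834), 0.038 for Etf1 (probe 1132), 0.17 for Rps6 (probe 2840). With each of replicates 2, 3 and 4 left out in turn, the mean ranged from -0.0074 to 0.37 for Eef1a1 (probe 1276), -0.011 to 0.37 for Eef1a1 (probe 6611), -0.12 to 0.099 for Eef1d (probe 894), -0.20 to 0.0081 for Eef2 (probe 1346), -0.22 to 0.21 for Eif2s3x (probe 4702), -0.011 to 0.23 for Eif2s3y (probe 4703), -0.029 to 0.0055 for Eif4ebp1 (probe 1834), -0.079 to 0.28 for Eif6 (probe 463), -0.19 to 0.11 for Etf1 (probe 1132), -0.12 to 0.37 for Rpl10 (probe 1376), -0.0047 to 0.20 for Rpl22 (probe 2825), -0.069 to 0.59 for Rpl38 (probe 164), -0.067 to 0.46 for Rplp1 (probe 5504), -0.28 to 0.55 for Rps29 (probe 2837), -0.59 to 0.080 for Rps6 (probe 2840), -0.043 to 0.077 for Rpsa (probe 1027). The cause of these changes was not tested, and signal over background is unknown.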
